A study of Mus musculus with 8 samples.

Results

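Molecular chaperones and heat shock proteins were examined in luminal and basal-like mammary tumor cells with and without Lats1. The set held every gene of the deposited table whose symbol marks an Hsp70, Hsp110, Hsp90, small heat shock, Hsp60/Hsp10, J-domain or CCT family member, plus Tcp1, Hsf1, the lectin chaperones Calr and Canx, and the disulfide isomerases Pdia3, Pdia4 and Pdia6. This gave 69 of 10924 genes. By where their proteins are known to work, 39 were placed in the cytosol and nucleus, 18 in the endoplasmic reticulum (ER), 8 in mitochondria and 4 elsewhere. Of the 69, 67 reached a value of 10 in 2 or more libraries and were tested. Dnajc12 and Dnajc22, with at most 12 and 13 reads in any library, were not tested.

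The cells were lines derived from mammary tumors of MMTV-PyMT mice, in which the polyoma middle T oncogene is driven by the mammary tumor virus promoter (strain given as FBV/N), and all groups carry that oncogene. They were wild type (WT) or had a conditional knockout of Lats1 (Lats1-CKO), and FACS separated a luminal population (EpCAM-high, CD49f-high) from a basal-like population (EpCAM-low, CD49f-high). The study states that sorted cells were grown briefly before RNA was taken, and the Cre driver, the exons deleted and the number of lines or animals behind the replicates are not given in the sources used here. MARS-seq, which barcodes RNA at reverse transcription and counts tags from the 3′ ends of transcripts, gave 2 libraries for each of the 4 groups, so the p-values reflect only how far these samples differed, which may be technical.

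Chaperones hold unfolded chains until they fold. In the cytosol, Hsp70 proteins bind exposed hydrophobic stretches under the control of J-domain proteins, which trigger ATP hydrolysis, and of Hsp110 proteins, which release the nucleotide, and clients are passed to Hsp90 or to the barrel-shaped chaperonin TRiC. The ER has its own set, in which BiP (Hspa5), GRP94 (Hsp90b1), the lectins calnexin and calreticulin and the disulfide isomerases fold secreted and membrane proteins. Unfolded protein in the cytosol releases the heat shock factor HSF1 onto heat shock elements, and unfolded protein in the ER activates ATF6 and XBP1, which act through ER stress elements. Secretory mammary cells are rich in ER, and tumor cells are known to rely on Hsp90 and HSF1.

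Those promoter elements are shown first because the ER and heat shock pathways are known to act through them. RefSeq promoter windows (GRCm38.p6, from 250 bases before to 50 bases after an annotated start) were found for 54 of the 69 members, 16 of them ER members, 31 cytosolic, 5 mitochondrial and 2 other. The ER stress element was searched on both strands as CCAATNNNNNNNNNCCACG. It was found in 6 of the 16 ER members and in 0 of the 31 cytosolic members, beside 0.137% of all 27025 genes with windows (0.119% of all 32851 windows). The stretches below run 5′ to 3′ on the strand of the gene, with the CCAAT and CCACG boxes, or their reverse complements ATTGG and CGTGG, in capitals.
Hspa5, chr2:34772013-34772055 (+): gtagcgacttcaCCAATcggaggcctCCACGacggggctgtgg
Calr, chr8:84847063-84847105 (−): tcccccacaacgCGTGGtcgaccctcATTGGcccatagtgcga
Canx, chr11:50325788-50325830 (−): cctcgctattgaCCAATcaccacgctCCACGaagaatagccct
Dnajc3, chr14:118937815-118937857 (+): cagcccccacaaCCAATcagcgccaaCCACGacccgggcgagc
Pdia6, chr12:17266479-17266521 (+): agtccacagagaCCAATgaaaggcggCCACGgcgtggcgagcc
Hsp90b1, chr10:86705521-86705668 (−): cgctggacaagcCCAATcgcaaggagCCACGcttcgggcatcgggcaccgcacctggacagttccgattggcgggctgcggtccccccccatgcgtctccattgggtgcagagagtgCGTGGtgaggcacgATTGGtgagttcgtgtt

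The Hsp90b1 window held 2 elements, 1 in each orientation, and the other 5 genes held 1 each. Counting the first transcribed base as 0, the elements began between base -212 (Hsp90b1) and base -65 (Hspa5). A shorter relative, ER stress element II (ATTGGNCCACG, both strands), was added after the data had been seen. It was present in Dnajb11, which encodes the BiP partner ERdj3, and in 0.0444% of all genes with windows (0.0365% of all windows). The Dnajb11 match lay after the annotated start, from base 7 to base 17.
Dnajb11, chr16:22857844-22857870 (+): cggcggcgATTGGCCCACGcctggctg

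The heat shock element was searched as 3 alternating units, GAANNTTCNNGAA or TTCNNGAANNTTC, whose reverse complements are the same patterns. It was found in Dnajb6 and Hsph1 among the 31 cytosolic members and in Hspd1 and Hspe1 among the 5 mitochondrial members. The element was in 0 of the 16 ER members and in 0.662% of all genes with windows (0.603% of all windows). Hspd1 and Hspe1, which encode the mitochondrial chaperonin Hsp60 and its lid Hsp10, lie head to head, and the same run of units was read in both orientations. The Hsph1 match lay after the start, beginning at base 15 or base 36 depending on the annotated start. Capitals mark the matches, with the bases between the units included.
Hspd1, chr1:55088047-55088088 (−): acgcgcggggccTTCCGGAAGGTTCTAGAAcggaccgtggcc
Hspe1, chr1:55088047-55088088 (+): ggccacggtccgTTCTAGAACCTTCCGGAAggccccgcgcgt
Dnajb6, chr5:29735840-29735876 (+): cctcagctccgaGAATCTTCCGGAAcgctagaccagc
Hsph1, chr5:149636280-149636308 (−): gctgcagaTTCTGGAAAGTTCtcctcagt

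A looser pattern of 2 units (GAANNTTC or TTCNNGAA), part of the element above, was present in 12 of the 31 cytosolic members, among them Hspa1a, Hspa1b, Hspb1 and Hspb8. It was present in 1 of the 16 ER members and in 17.0% of all genes with windows (15.1% of all windows). A match is a description of these letters in these windows and no evidence of binding.

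**Figure D1:**
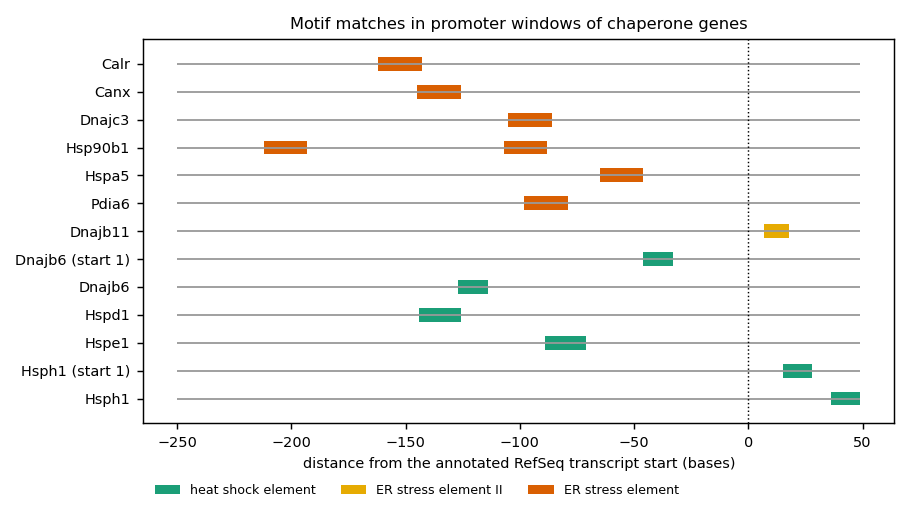
Position of each motif match (colored bars) in the promoter windows of members (grey lines), in bases from the annotated RefSeq transcript start (dotted line); Dnajb6 and Hsph1 each have 2 annotated starts and appear on 2 lines. The ER stress elements lie before the start in 6 ER genes, and the heat shock elements lie in Dnajb6, Hspd1, Hspe1 and Hsph1.

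The libraries held between 1070358 and 2334446 reads, and 1 read was worth between 0.638 and 1.35 normalized reads. Chaperone genes took between 1.26% and 1.64% of the reads. Lats1 itself gave 41.9 and 62.5 normalized reads for WT luminal, 30.3 and 42.2 for WT basal-like, 13.4 and 9.08 for Lats1-CKO luminal and 8.04 and 11.6 for Lats1-CKO basal-like libraries, in the direction of the labels, although 3′ tags may lie outside the deleted part. All 7 luminal markers were in the table, and their summed values were 11002 and 11670 for WT luminal, 3707 and 8072 for WT basal-like, 3008 and 7445 for Lats1-CKO luminal and 179 and 273 for Lats1-CKO basal-like libraries. The 5 basal markers found of 6 did not mark the basal-like libraries: their sums were 1305 and 2281 for WT basal-like and 218 and 901 for Lats1-CKO basal-like against 2132 and 4031 for WT luminal and 3137 and 20036 for Lats1-CKO luminal. The basal-like groups are therefore named by their sort. Fibroblast markers (6 of 8 in the table, with Dcn at 0 in 7 libraries) summed to between 2.7 and 14.3 in WT libraries, to 21.1 and 48.4 for Lats1-CKO luminal and to 302 and 366 for Lats1-CKO basal-like libraries. The cartilage markers Col2a1, Acan, Col9a1 and Sox9 (4 of 5) summed to between 275 and 551 in 6 libraries, to 4104 in Lats1-CKO luminal replicate 2 and to 28964 in Lats1-CKO basal-like replicate 2. Immune markers (3 of 6) summed to at most 89.3 and the endothelial marker Kdr (1 of 4) to at most 18.8. In bulk samples fewer cells of a type and less RNA per cell cannot be told apart.

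No chaperone passed an adjusted p of 0.05 in limma in any of the 7 comparisons. Across all 9031 genes tested, the share called at that threshold was 0.0% for basal-like against luminal WT cells, 0.0% for Lats1-CKO against WT luminal cells, 0.554% for Lats1-CKO against WT basal-like cells, 0.487% for basal-like against luminal Lats1-CKO cells and 0.0% for the interaction, which is how much larger the basal-like minus luminal difference was in Lats1-CKO than in WT. The share was 0.288% for the genotype average and 0.376% for the population average, which are means of the 2 genotype differences and of the 2 population differences. The number of members at an unadjusted p under 0.05 was 1 (1.47% of all genes), 1 (2.78%), 1 (8.86%), 3 (7.32%) and 0 (2.33%) in the order of the first 5 comparisons, 3 (9.36%) for the genotype average and 7 (6.48%) for the population average. Of 67 members, these counts lay near or below the shares over all genes except for the population average. The count of 7 for that average was not stable: it fell in most of the fits with 1 library left out. At the same threshold edgeR gave 6 members (616 of 9031 genes) and DESeq2 with the settings of the study 5 (613 of 10924 genes). In DESeq2 on the recovered reads, 1 member, Hspb1, passed an adjusted p of 0.05 for basal-like against luminal Lats1-CKO cells (1.59% of genes with an adjusted p) and, with default settings, for the population average (1.35%). With the settings of the study, 0 members passed for the population average, where the lowest adjusted p was 0.0637. The levels below are therefore descriptions, and differences among them that do not pass the test are given as values.

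**Figure D2:**
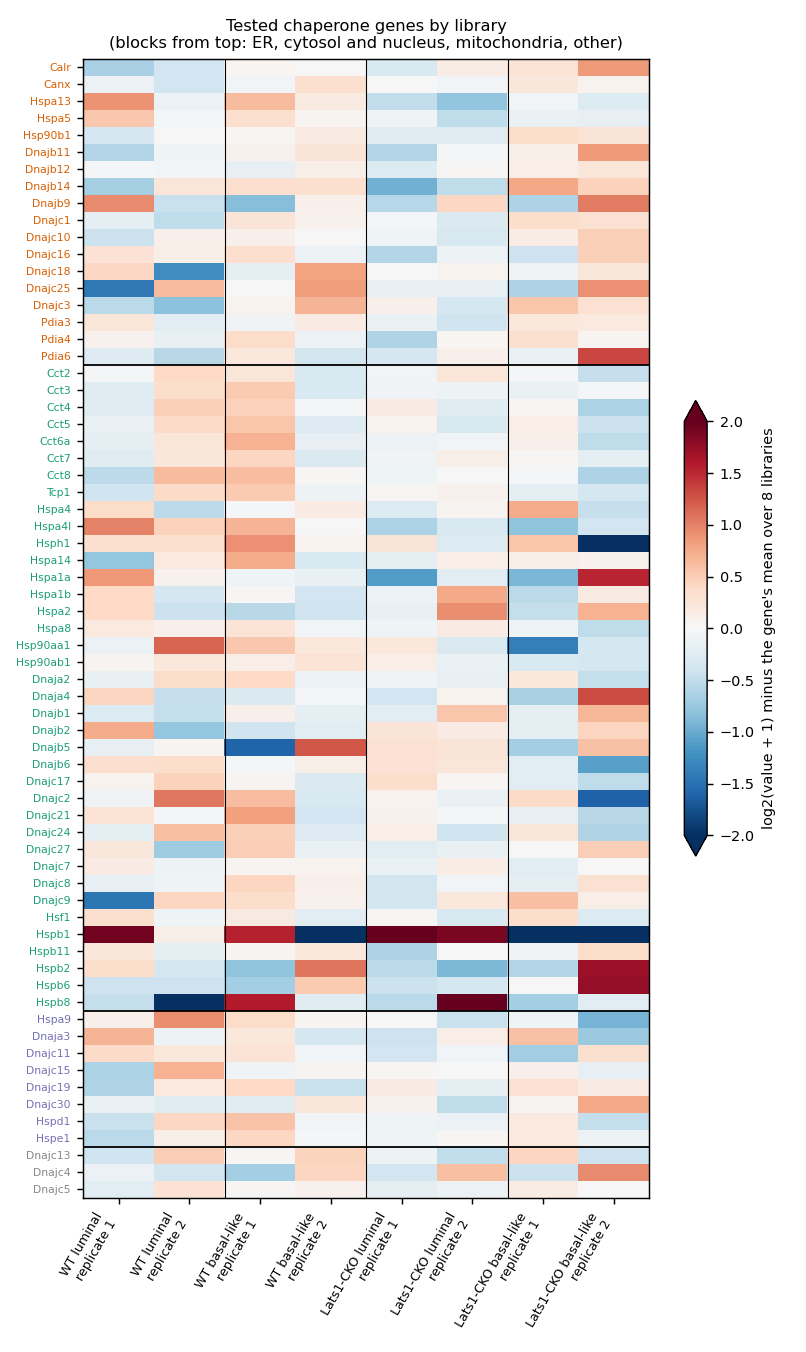
Level of each of the 67 tested members (rows, grouped by compartment) in the 8 libraries (columns), as log2(normalized value + 1) minus the gene's mean over the libraries; colors stop at -2 and 2. In the top block of 18 ER genes, 16 were above their mean in Lats1-CKO basal-like replicate 2 and 1 in Lats1-CKO luminal replicate 1.

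Most ER chaperones had a small positive fold change between basal-like and luminal libraries, and none passed the adjusted test. For the population average, 17 of the 18 ER members had a positive log2 fold change, with a median of 0.38, and the exception was Dnajb9 (-0.17). The median over the 38 tested cytosolic members was -0.02, with 16 positive, and that over all 9031 genes was 0.02. Within Lats1-CKO cells, 18 of 18 ER members were positive with a median of 0.47, against 12 of 38 cytosolic members and a median of -0.11. Within WT cells, 15 of 18 were positive with a median of 0.30, against 22 of 38 and a median of 0.05. The median relative level of the ER members, each gene's log2(value + 1) minus its own mean over the 8 libraries, was -0.15 and -0.13 for WT luminal, -0.25 and -0.14 for Lats1-CKO luminal, 0.08 and 0.15 for WT basal-like and 0.14 and 0.30 for Lats1-CKO basal-like libraries. All 4 basal-like libraries thus lay above all 4 luminal ones. Members of 1 library share that library's scaling and are no replicates of each other, so these counts carry no test.

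Without a log scale, the share of reads in the 18 ER genes also separated basal-like from luminal libraries, with another order within each. It was 0.309% and 0.307% for WT luminal, 0.312% and 0.360% for Lats1-CKO luminal, 0.384% and 0.376% for WT basal-like and 0.410% and 0.535% for Lats1-CKO basal-like libraries. Calr took between 33.2% and 47.3% of these reads. Without Calr and Pdia6 the shares still did not overlap but lay close together, between 0.131% and 0.159% in the luminal and between 0.165% and 0.178% in the basal-like libraries. The cytosolic members took 0.871% and 0.952% for WT luminal, 1.03% and 0.789% for WT basal-like, 0.939% and 0.868% for Lats1-CKO luminal and 0.736% and 0.593% for Lats1-CKO basal-like libraries. The lowest cytosolic and the highest ER share were both in Lats1-CKO basal-like replicate 2.

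That library also had the highest sum of cartilage markers, and the part of its cartilage genes in the ER levels was not tested. Without Lats1-CKO basal-like replicate 2 the median of the ER members was 0.30 for the population average and 0.35 within Lats1-CKO cells, and without both Lats1-CKO replicate 2 libraries it was 0.29 and 0.36. The cytosolic median within Lats1-CKO cells was 0.01 without both replicate 2 libraries, against -0.11 with them, and -0.26 without Lats1-CKO basal-like replicate 1. In WT cells, where cartilage sums were between 406 and 551, the median of 0.30 ranged from 0.21 to 0.30 when any 1 library was left out.

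**Figure D3:**
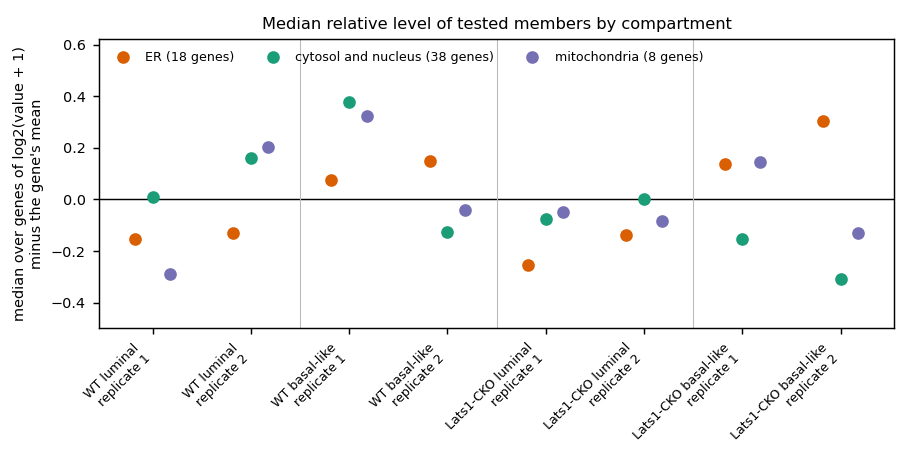
Median relative level (log2(value + 1) minus the gene's mean, vertical axis) of ER, cytosolic and mitochondrial members in each library. The ER medians lie between -0.25 and -0.13 in the 4 luminal libraries and between 0.08 and 0.30 in the 4 basal-like ones, while the cytosolic medians range from -0.31 to 0.38 with no such order.

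Among the 67 tested members, 4 had all basal-like libraries above all luminal ones, beside 0.997% of all genes tested: the ER genes Hsp90b1, Dnajb11, Dnajb14 and Dnajc1. The cytosolic Dnajc12, which was too low to be tested, had the same order, with at most 6.06 normalized reads in the luminal and at least 6.70 in the basal-like libraries. Hsp90b1 encodes GRP94, the ER form of Hsp90, which folds integrins and Toll-like receptors. It gave 626 and 783 normalized reads for WT luminal, 671 and 667 for Lats1-CKO luminal, 815 and 893 for WT basal-like and 1022 and 945 for Lats1-CKO basal-like libraries. Its population average log2 fold change was 0.42 ± 0.17 (SE, 4 against 4 libraries; adjusted p = 0.725 in limma). Dnajb11 gave 138 and 195 for WT luminal, 138 and 203 for Lats1-CKO luminal, 222 and 248 for WT basal-like and 225 and 375 for Lats1-CKO basal-like libraries. The difference was 0.65 ± 0.26 (SE; adjusted p = 0.714), and it was 0.47 without Lats1-CKO basal-like replicate 2.

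Dnajb14 and Dnajc1 were measured at low counts. Dnajb14, a J protein of the ER membrane, gave 10.8 and 21.1 normalized reads for WT luminal, 8.64 and 12.1 for Lats1-CKO luminal, 22.5 and 22.3 for WT basal-like and 30.8 and 24.6 for Lats1-CKO basal-like libraries. The lowest basal-like value, 22.3, was next to the highest luminal one, 21.1. The log2 fold change within Lats1-CKO cells was 1.34 ± 0.47 (SE; adjusted p = 0.557) and the population average was 0.94 ± 0.33 (adjusted p = 0.63). Dnajc1 encodes ERdj1, which binds ribosomes at the ER membrane. It gave 16.2 and 12.8 for WT luminal, 18.2 and 15.1 for Lats1-CKO luminal, 22.5 and 19.9 for WT basal-like and 24.1 and 23.3 for Lats1-CKO basal-like libraries, a difference of 0.51 ± 0.28 (SE; adjusted p = 0.85).

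The lectin chaperones retain glycoproteins in the ER until they fold. Calr, soluble calreticulin, gave 1483 and 1773 normalized reads for WT luminal, 2386 and 2325 for WT basal-like, 1875 and 2560 for Lats1-CKO luminal and 2803 and 4160 for Lats1-CKO basal-like libraries. Within each genotype both basal-like libraries were above both luminal ones, and within each population both Lats1-CKO libraries were above both WT ones. The population average was 0.59 ± 0.20 (SE; adjusted p = 0.614) and the genotype average 0.48 ± 0.20 (adjusted p = 0.528). Without both Lats1-CKO replicate 2 libraries they were 0.56 and 0.23. Canx, the membrane-bound calnexin, gave 71.6 and 59.3 for WT luminal, 74.6 and 97.1 for WT basal-like, 76.8 and 74.7 for Lats1-CKO luminal and 91.1 and 81.5 for Lats1-CKO basal-like libraries. The 2 populations overlapped once the genotypes were pooled, and the population average was 0.28.

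BiP, the ER Hsp70, did not share the order of its partners. Hspa5 gave 705 and 473 normalized reads for WT luminal, 609 and 506 for WT basal-like, 463 and 341 for Lats1-CKO luminal and 442 and 434 for Lats1-CKO basal-like libraries. The 4 Lats1-CKO libraries lay below the 4 WT ones, but the nearest pair, 463 against 473, was closer than any replicates but those of the last group. The genotype average was -0.44 ± 0.21 (SE; adjusted p = 0.586) and the population average 0.04 ± 0.21 (adjusted p = 0.997). The widened counting interval of Rabepk overlaps the 3′ end of Hspa5 on the opposite strand. The strand setting of the counting was not stated, so whether this overlap altered the Hspa5 count is not known.

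The J-domain partners of BiP that act under ER stress differed among themselves. Dnajc3 encodes p58IPK, a BiP partner known as a brake on the kinase PERK. It gave 48.7 and 40.2 normalized reads for WT luminal, 74.6 and 115 for WT basal-like, 76.8 and 55.5 for Lats1-CKO luminal and 106 and 88.0 for Lats1-CKO basal-like libraries. Its log2 fold change was 1.05 ± 0.35 (SE) in WT cells, the lowest unadjusted p of any member there, with an adjusted p of 1.0, and the population average was 0.80 ± 0.25 (adjusted p = 0.508). Dnajb9 encodes ERdj4, a target of the XBP1 branch. It gave 64.9 and 24.2 for WT luminal, 17.9 and 35.8 for WT basal-like, 22.1 and 44.4 for Lats1-CKO luminal and 21.4 and 68.6 for Lats1-CKO basal-like libraries, so that replicates differed more than groups.

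The disulfide isomerases were less ordered by population. Pdia6 gave 684 and 557 normalized reads for WT luminal, 946 and 631 for WT basal-like, 646 and 880 for Lats1-CKO luminal and 749 and 2068 for Lats1-CKO basal-like libraries. The single value of 2068 was in the library with the highest cartilage markers. Pdia3, which works with the lectins, gave 181 and 131 for WT luminal, 145 and 172 for WT basal-like, 139 and 115 for Lats1-CKO luminal and 177 and 175 for Lats1-CKO basal-like libraries. Pdia4 gave 73.0 and 61.9 for WT luminal, 88.6 and 62.8 for WT basal-like, 45.1 and 70.7 for Lats1-CKO luminal and 85.7 and 71.2 for Lats1-CKO basal-like libraries. Population averages were 0.52 for Pdia6, 0.25 for Pdia3 and 0.31 for Pdia4, and none of the 3 genes separated the populations. Without Lats1-CKO basal-like replicate 2 the value for Pdia6 was 0.16, and with any 1 library left out Pdia3 ranged from 0.14 to 0.37 and Pdia4 from 0.15 to 0.46. The remaining 6 ER members, Hspa13, Dnajb12, Dnajc10, Dnajc16, Dnajc18 and Dnajc25, had population averages between 0.15 and 0.57.

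**Figure D4:**
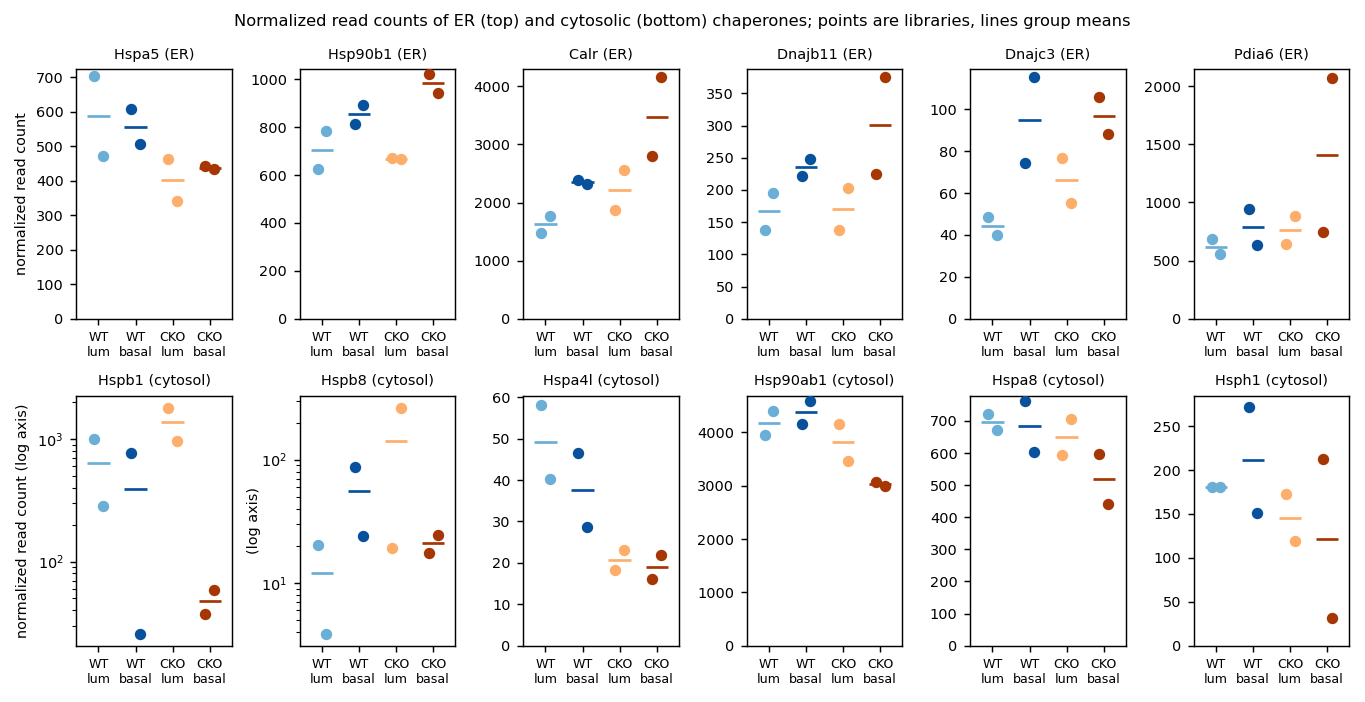
Normalized read counts (vertical axis, logarithmic for Hspb1 and Hspb8) of 6 ER members (top) and 6 cytosolic members (bottom); points are the 2 libraries of each group and lines are group means. Hsp90b1 and Dnajb11 lie higher in all 4 basal-like libraries, Hspa5 and Hspa4l lie lower in all 4 Lats1-CKO libraries, and Hspb1 spans 25.5 to 1806.

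The 6 genes with an ER stress element did not move as one: their population averages were 0.80 for Dnajc3, 0.59 for Calr, 0.52 for Pdia6, 0.42 for Hsp90b1, 0.28 for Canx and 0.04 for Hspa5. The value for Pdia6 was 0.16 without Lats1-CKO basal-like replicate 2. A list of unfolded protein response genes held sensors, transcription factors and related genes such as Trib3 and Asns. With all libraries included, they were mostly of the opposite sign to the ER chaperones in WT cells but not in Lats1-CKO cells. Of 18 tested, 4 were positive between the WT populations (median -0.61), 11 between the Lats1-CKO populations (median 0.05) and 6 for the population average (median -0.32), and 0 passed the adjusted test in any comparison. The 19 genes of this list in the table summed to 12743 and 6695 for WT luminal and to 5367 and 6475 for WT basal-like libraries. For Lats1-CKO the sums were 8194 and 4218 in luminal and 5482 and 6465 in basal-like libraries. WT luminal replicate 1 thus stood apart, and the WT median was not computed without it. How far the signs in WT cells, and their difference from Lats1-CKO cells, rest on that library was not tested. Trib3, which ATF4 induces, gave 874 and 450 normalized reads for WT luminal, 181 and 247 for WT basal-like, 453 and 141 for Lats1-CKO luminal and 26.8 and 208 for Lats1-CKO basal-like libraries, with a population average of -1.65 ± 0.67 (SE; adjusted p = 0.738). Without Lats1-CKO basal-like replicate 1 that average was -0.92. Atf6 gave 41.9 and 27.4 for WT luminal, 11.7 and 16.7 for WT basal-like, 15.4 and 19.2 for Lats1-CKO luminal and 25.4 and 12.9 for Lats1-CKO basal-like libraries. Its log2 fold change between the populations was -1.22 ± 0.49 (SE; adjusted p of 1.0) in WT and 0.08 in Lats1-CKO cells.

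Further ER folding and degradation genes, 27 of 34 listed being in the table and 24 tested, had a median of 0.17 for the population average with 18 positive. None passed the adjusted test. Between the WT populations 14 of 24 were positive with a median of 0.04. Between basal-like cells, 20 of 24 were positive in Lats1-CKO against WT with a median of 0.27, and against Lats1-CKO luminal cells 19 of 24 with a median of 0.33. Serpinh1, the collagen chaperone Hsp47, gave 696 and 607 normalized reads for WT luminal, 557 and 1335 for WT basal-like, 354 and 873 for Lats1-CKO luminal and 1499 and 2923 for Lats1-CKO basal-like libraries. Pdia5, another disulfide isomerase, gave 9.46 and 11.5 for WT luminal, 14.0 and 8.75 for WT basal-like, 23.0 and 17.2 for Lats1-CKO luminal and 32.1 and 91.9 for Lats1-CKO basal-like libraries. For Pdia5 all Lats1-CKO libraries were above all WT ones, and its genotype average was 1.53 ± 0.41 (SE; adjusted p = 0.262). Both genes were highest in Lats1-CKO basal-like replicate 2, the library with 28964 normalized reads of cartilage markers, most of them from the collagen gene Col2a1 at 22433. Both were next highest in Lats1-CKO basal-like replicate 1, where those markers summed to 275. The part of cartilage genes in these values was not tested.

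The cytosolic chaperones had no common direction between the populations. For the genotype average 12 of the 38 tested cytosolic members were positive, with a median of -0.15, and the median over all genes was -0.01. Leaving out a single WT basal-like library moved that median to -0.06 (replicate 1) or -0.26 (replicate 2). For Lats1-CKO against WT basal-like cells 13 were positive with a median of -0.20, but that median ranged from -0.50 to -0.02 when 1 library was left out. Comparing all Lats1-CKO with all WT libraries, 0 members were higher without overlap (2.44% of all genes tested) and 3 were lower (2.11% of all genes tested): Hspa4l, Hspa5 and Hspa9. Comparing all basal-like with all luminal libraries, 1 member, Dnajb6, was lower without overlap (1.85% of all genes tested).

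The Hsp110 proteins are nucleotide exchange factors for Hsp70. Hspa4l gave 58.1 and 40.2 normalized reads for WT luminal, 46.6 and 28.6 for WT basal-like, 18.2 and 23.2 for Lats1-CKO luminal and 16.1 and 22.0 for Lats1-CKO basal-like libraries. All Lats1-CKO values were below all WT values, and the genotype average was -1.06 ± 0.30 (SE; adjusted p = 0.307), ranging from -1.23 to -0.89 with any 1 library left out. It was 1 of 2 members lower at an unadjusted p under 0.05 in that comparison (4.57% of all genes), the other being Hspa9, while 1 member, Calr, was higher (4.78%). Its relative Hspa4 gave 116 and 61.9 for WT luminal, 87.0 and 100 for WT basal-like, 73.9 and 92.9 for Lats1-CKO luminal and 150 and 64.7 for Lats1-CKO basal-like libraries, with no order by genotype. Hsph1 gave 181 and 181 for WT luminal, 272 and 151 for WT basal-like, 173 and 119 for Lats1-CKO luminal and 213 and 31.1 for Lats1-CKO basal-like libraries, and the value of 31.1 stood apart from the other 7.

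Hspa8 encodes Hsc70, the constitutive Hsp70. It gave 723 and 673 normalized reads for WT luminal, 761 and 605 for WT basal-like, 595 and 707 for Lats1-CKO luminal and 596 and 441 for Lats1-CKO basal-like libraries. The stress-inducible pair Hspa1a and Hspa1b encode near-identical proteins, and reads may be split between them. Hspa1b gave 451 and 270 for WT luminal, 347 and 263 for WT basal-like, 314 and 580 for Lats1-CKO luminal and 234 and 388 for Lats1-CKO basal-like libraries. Hspa1a gave 67.6 and 38.9 for WT luminal, 34.2 and 32.6 for WT basal-like, 16.3 and 31.3 for Lats1-CKO luminal and 18.8 and 106 for Lats1-CKO basal-like libraries. Neither followed genotype or population beyond the difference between replicates. Hsf1, their transcriptional activator, gave 188 and 142 for WT luminal, 170 and 130 for WT basal-like, 153 and 122 for Lats1-CKO luminal and 192 and 124 for Lats1-CKO basal-like libraries, and the ranges of the 4 groups overlapped.

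Of the cytosolic Hsp90 genes, Hsp90ab1 encodes the constitutive and Hsp90aa1 the inducible form. Hsp90ab1 gave 3961 and 4403 normalized reads for WT luminal, 4161 and 4599 for WT basal-like, 4161 and 3474 for Lats1-CKO luminal and 3075 and 2991 for Lats1-CKO basal-like libraries. Both Lats1-CKO basal-like values were below the other 6, and the log2 fold change against WT basal-like cells was -0.53 ± 0.22 (SE; adjusted p = 0.563), between -0.60 and -0.46 with 1 library left out. The widened counting interval of Slc35b2 overlaps the 3′ end of Hsp90ab1 on the opposite strand. Hsp90aa1 gave 36.5 and 90.6 for WT luminal, 58.3 and 46.1 for WT basal-like, 46.1 and 32.3 for Lats1-CKO luminal and 14.7 and 31.1 for Lats1-CKO basal-like libraries, also lowest in the Lats1-CKO basal-like group, with a log2 fold change of -1.24 that had no unadjusted p under 0.05 and ranged from -1.75 to -0.72 with any 1 library left out. GRP94, the ER form, had the opposite sign at 0.20 in that comparison.

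Small heat shock genes had the highest median spread of the families. The median SD of log2(value + 1) over the 8 libraries was 0.956 for the 5 small heat shock genes against 0.419 for all tested members and 0.480 for all tested genes. The 5 were taken by symbol, and 1 of them, Hspb11, encodes the intraflagellar transport protein Ift25 and had the lowest SD, 0.303. Hspb1 encodes Hsp25, the mouse form of Hsp27, an actin-protecting holdase. It gave 1000 and 286 normalized reads for WT luminal, 764 and 25.5 for WT basal-like, 1806 and 967 for Lats1-CKO luminal and 37.5 and 58.2 for Lats1-CKO basal-like libraries. The highest value was 68.3 times the lowest after adding 1 to each. Both Lats1-CKO basal-like libraries were below every luminal library, whereas the WT basal-like pair, 764 and 25.5, spanned most of the range by itself. The log2 fold change between basal-like and luminal Lats1-CKO cells was -4.79 ± 1.39 (SE; adjusted p = 0.403 in limma, 0.000904 in DESeq2), and the population average was -3.35 ± 0.99 (SE; adjusted p = 0.472 in limma and 0.0227 in default DESeq2, lost at 0.0637 with the settings of the study). Leaving out 1 library moved these to between -5.24 and -4.34 and to between -4.57 and -2.14. Luminal markers were low in the same libraries, with sums of 179 and 273 in Lats1-CKO basal-like cells and 3707 in WT basal-like replicate 2, but also in Lats1-CKO luminal replicate 2 at 3008, where Hspb1 was at 967, and their part in the Hspb1 values was not tested.

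Hspb8, the Hsp22 partner of the co-chaperone Bag3, gave 20.3 and 3.83 normalized reads for WT luminal, 87.0 and 23.9 for WT basal-like, 19.2 and 264 for Lats1-CKO luminal and 17.4 and 24.6 for Lats1-CKO basal-like libraries. The value of 264 came from Lats1-CKO luminal replicate 2, where Krt14 was at 14721 and Krt5 at 4881, and the part of keratin-rich cells was not tested. Hspb6, also called Hsp20, was at most 66.0 in 7 libraries and 155 in Lats1-CKO basal-like replicate 2. Hspb2 was between 18.2 and 74.0 in 7 libraries and 116 in the same one. The widened counting interval of Cryab overlaps the 3′ end of Hspb2 on the opposite strand. Cytosolic co-chaperones, from a list of Bag, Hop, p23, Chip and related genes of which 28 were tested, had medians of 0.07 for the population average (16 positive) and -0.14 for the genotype average (9 positive), and none passed the adjusted test. Stub1, which encodes the ubiquitin ligase Chip, gave 376 and 387 normalized reads for WT luminal, 490 and 563 for WT basal-like, 446 and 399 for Lats1-CKO luminal and 560 and 730 for Lats1-CKO basal-like libraries, and all basal-like values were above all luminal ones (population average 0.53 ± 0.18 (SE); adjusted p = 0.586).

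Dnajb1, the heat-inducible J protein of Hsp70, gave 115 and 100 normalized reads for WT luminal, 150 and 123 for WT basal-like, 121 and 205 for Lats1-CKO luminal and 123 and 221 for Lats1-CKO basal-like libraries. Its highest values were in the Lats1-CKO replicate 2 libraries, the 2 with high cartilage markers. Dnajb6, which keeps aggregation-prone proteins soluble, gave 109 and 110 for WT luminal, 106 and 102 for Lats1-CKO luminal, 84.7 and 93.1 for WT basal-like and 73.7 and 40.1 for Lats1-CKO basal-like libraries. All 4 luminal values were above all 4 basal-like ones. The population average was -0.61 ± 0.25 (SE; adjusted p = 0.726), or -0.40 without Lats1-CKO basal-like replicate 2. Hspb1 and Dnajb6 were the 2 members lower at an unadjusted p under 0.05 for that average (3.99% of all genes), and the 5 higher ones (2.49% of all genes) were the ER genes Dnajc3, Calr, Dnajb14, Dnajb11 and Hsp90b1. The remaining 12 cytosolic J proteins had population averages from -0.47 (Dnajc17) to 0.59 (Dnajc9) and genotype averages from -0.66 (Dnajc2, which acts at ribosomes) to 0.33 (Dnajb2).

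**Figure D5:**
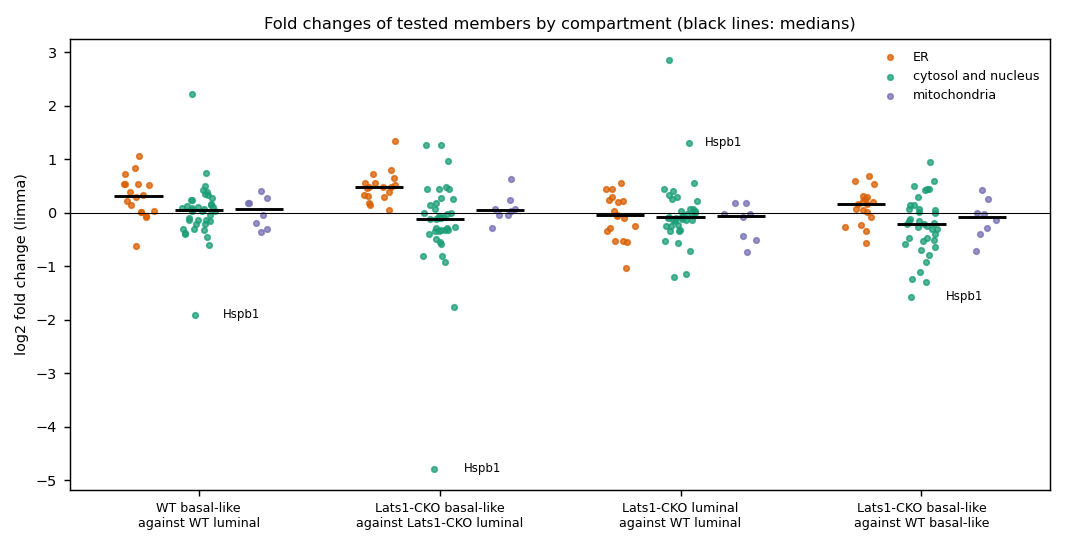
Log2 fold changes (limma, log2(value + 1) scale, vertical axis) of the tested ER, cytosolic and mitochondrial members in 4 comparisons; each point is a gene, black lines are medians, and Hspb1 is labelled where it lies beyond most members. The ER medians are 0.30 and 0.47 for basal-like against luminal cells in WT and Lats1-CKO, and no point passed the adjusted test.

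The chaperonin TRiC folds actin and tubulin and is built from 8 subunits, each from its own gene. The 8 subunit genes, Tcp1, Cct2, Cct3, Cct4, Cct5, Cct6a, Cct7 and Cct8, differed between replicates as well as between groups. All 8 were above their own mean in WT luminal replicate 2 and in WT basal-like replicate 1, and 0 were above it in WT luminal replicate 1 and in Lats1-CKO basal-like replicate 2. Their median relative levels were -0.24 and 0.38 for WT luminal, 0.53 and -0.21 for WT basal-like, -0.06 and -0.04 for Lats1-CKO luminal and 0.00 and -0.45 for Lats1-CKO basal-like libraries, so that the replicates of either WT group lay on opposite sides of 0. Between groups, 0 of 8 were positive for Lats1-CKO against WT basal-like cells (median -0.38) and for basal-like against luminal Lats1-CKO cells (median -0.19), 7 of 8 were positive between the WT populations (median 0.09), and no subunit passed the adjusted test. Tcp1 gave 243 and 418 normalized reads for WT luminal, 466 and 301 for WT basal-like, 328 and 342 for Lats1-CKO luminal and 285 and 252 for Lats1-CKO basal-like libraries. Cct2 gave 751 and 1016, 910 and 624, 745 and 918, and 759 and 563 in the same order of groups. Cct8 gave 136 and 307, 302 and 201, 187 and 196, and 194 and 128. The summed value of 10 proliferation genes was lowest in the 2 libraries where no subunit was above its mean, 608 in WT luminal replicate 1 and 1165 in Lats1-CKO basal-like replicate 2. It was highest, 2777, in WT basal-like replicate 1. In WT luminal replicate 2, with all 8 subunits above their mean, it was 1837. It was higher in Lats1-CKO luminal replicate 2 (2083, 3 subunits above) and Lats1-CKO basal-like replicate 1 (2025, 4 above). The part of proliferation in the subunit levels was not tested.

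The mitochondrial chaperonin followed the same libraries. Hspd1 gave 514 and 926 normalized reads for WT luminal, 1031 and 671 for WT basal-like, 657 and 642 for Lats1-CKO luminal and 794 and 502 for Lats1-CKO basal-like libraries. Hspe1, from the other side of their shared promoter, gave 539 and 854 for WT luminal, 1050 and 773 for WT basal-like, 746 and 802 for Lats1-CKO luminal and 903 and 736 for Lats1-CKO basal-like libraries. Both were lowest or near lowest in WT luminal replicate 1 and highest in WT basal-like replicate 1. Hspa9, the mitochondrial Hsp70 mortalin, gave 434 and 772 for WT luminal, 525 and 422 for WT basal-like, 401 and 299 for Lats1-CKO luminal and 383 and 212 for Lats1-CKO basal-like libraries. All Lats1-CKO values were below all WT values, and the genotype average was -0.73 ± 0.29 (SE; adjusted p = 0.486), or -0.41 without both Lats1-CKO replicate 2 libraries. The remaining 5 mitochondrial members, all J proteins, had genotype averages between -0.40 and 0.22. Other genes of mitochondrial protein quality control (proteases, import and folding factors, 11 tested) had medians of 0.03 for the population average and 0.15 for the genotype average, and none passed the adjusted test.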

How the data were processed

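RNA from 8 libraries (4 groups of 2) was measured by MARS-seq. Per the study's methods, the authors used cutadapt for trimming, STAR for alignment to mm10 and htseq-count in union mode for counting, over Gencode genes widened by 1000 bases 5′ and 100 bases 3′, and dropped genes below 5 reads. The deposited values are a signal, reads of a gene over the library's size factor from the authors' DESeq2 run. The strand setting and any use of molecular identifiers are not given in the sources used here. In 24 columns the table holds the authors' own fold changes and p-values, which were not used. Values were whole multiples of 1 read (tolerance 1e-06), so reads were recovered.

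Groups came from the labels. The members, gene lists and tests were chosen with earlier results of these data known. The 9031 genes that reached 10 in 2 or more libraries (1893 were left out) were fitted on log2(value + 1), a scale that understates changes of low genes, by limma 3.58.1 under R 4.3.3. The fit had a coefficient per group over all 8 libraries and let the variance follow the mean level. The p-values are two-sided and Benjamini-Hochberg adjusted over all genes tested. The method was tested on simulated data with larger changes than most members had, so its power for small changes was not tested. Named with every library's value were a fixed core of members, members with an unadjusted p under 0.05 and members whose 4 against 4 libraries did not overlap. Other pathway lists (ER folding, unfolded protein response, co-chaperones, mitochondrial quality control, cell type markers) are given by counts and medians. Alternatives were pseudocounts of 0.5 and 5, other filters, TMM scaling, edgeR 4.0.16 and DESeq2 1.42.0 on recovered reads, fits to the compared groups and each library left out. Gene coordinates are from GENCODE M21 (GRCm38, the assembly behind mm10) and sequences from RefSeq (GRCm38.p6). Of the members, 2 share their 3′ end with a gene on the same strand and 16 with a gene on the opposite strand only.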

Additional observations from a re-analysis of the deposited data

How the results depend on the processing

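No member passed limma's test under any pseudocount, filter, TMM or left-out library, and none passed edgeR on the recovered reads. The number called was 1 instead of 0 in DESeq2 with default settings and in DESeq2 with the study's settings for basal-like against luminal Lats1-CKO cells, and 1 in default DESeq2 for the population average. That gene was Hspb1 each time, with adjusted p-values of 0.000904, 0.00476 and 0.0227. Of the other settings, 120 member counts kept their value. No fold change with an unadjusted p under 0.05 turned its sign. Medians of the ER members for basal-like against luminal cells stayed positive under every setting, whereas cytosolic medians moved with WT basal-like replicate 1: without it the median was -0.21 between WT populations. The ER median of the interaction dropped from 0.28 to 0.06 without Lats1-CKO basal-like replicate 2. Leaving out both Lats1-CKO replicate 2 libraries was chosen after seeing the data. With 2 libraries a group, the fit without 1 library assumes that the lone sample varies like the other groups. No paired analysis was possible because the labels give no replicate numbers or pairing. Among the ER genes, Hspa13, Dnajb14, Dnajc1 and Dnajc16 had at most 23, 33, 29 and 28 reads in any library, and depth limits their values.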
